A study of Mus musculus with 10 samples.

Results

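The genes described here encode the collagens, the laminin chains and 6 further proteins of the vascular basement membrane and its surroundings. They were taken from the 23238 gene symbols that all 10 count files list: every symbol of the form Col, number, a, number or Lam, letter a to c, number, together with Nid1, Nid2, Hspg2, Agrn, Sparc and Fn1. This gave 61 genes, of which 44 encode collagen chains and 11 encode laminin chains. The RNA came from endothelial cells purified from high-grade gliomas that a mouse glioma line, GL26l, formed in the brains of C57BL/6 mice. There were 2 Sox7-deficient and 2 Sox7 control libraries, and 3 Sox17-deficient and 3 Sox17 control libraries. The Sox7-deficient and the Sox17-deficient group (ECKO in the labels, endothelial knockout) carried Sox7fl/fl or Sox17fl/fl alleles together with Cdh5(BAC)-CreERT2, a tamoxifen-inducible recombinase driven by the promoter of the endothelial cadherin gene Cdh5. Tamoxifen was given at 20 mg/kg to experimental mice, per the series' design text; the labels name the controls only as Sox7 control or Sox17 control, so whether they carried the recombinase or received tamoxifen is not given. An effect of tamoxifen or of the recombinase cannot be told apart from that of the deletion. Libraries are numbered by set, each with 1 deficient and 1 control library, and the 2 arms have separate controls. No age, number of animals or pooling is given, so that the spread which the p-values measure lies between samples and may in part be technical.

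Endothelial cells rest on a basement membrane, a thin sheet that they lay down together with pericytes. Its frame is a network of collagen IV and a network of laminins, which are trimers of an alpha, a beta and a gamma chain. Nidogens and the heparan sulfate proteoglycans perlecan and agrin bind these networks to each other and to the cell surface. In the brain this sheet is part of the blood-brain barrier, and in gliomas the vessels are known for a thickened and irregular one. Sox7 and Sox17 encode transcription factors of the SoxF family, which act in the growth and arterial fate of vessels.

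Levels are given as CPM (counts-per-million), relative to library sizes that edgeR's TMM factors adjust for composition. QuantSeq libraries hold 1 tag per transcript, taken close to its 3′ end, so a count does not grow with transcript length and CPM can be set side by side between genes. Sox7 had 0.577 and 0.664 CPM (4 and 5 counts) in Sox7-deficient libraries, against 23.1 and 5.9 CPM in Sox7 controls. Sox17 had 1.93, 1.07 and 6.7 CPM (14, 38 and 54 counts) in Sox17-deficient libraries, against 174, 90.1 and 93.4 CPM in Sox17 controls. Each targeted gene was thus lower in every library labelled deficient for it than in every control of its arm. The labels do not say which exons are floxed or whether the tag lies in the deleted part. Depth ranged from 2082305 counts (Sox17 control 1) to 35068802 counts (Sox17-deficient 2), so that 3 counts, taken here as the floor, correspond to 1.36 CPM and 0.0847 CPM. No molecular identifiers are named in the labels, and floors cover counting error only. All 20 listed pan-endothelial markers had counts in each of the 4 groups, with summed levels of 11231 to 21595 CPM per library. Sox7-deficient 1 stood apart in macrophage markers, whose 15 genes summed to 14888 CPM in it, against 18.6 to 867.7 CPM in the other 9 libraries. Markers of astrocytes, glioma and neural progenitors, neurons and oligodendrocytes summed to at most 948, 729, 69.8 and 67.7 CPM in any library.

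The sequences printed are those of genes the comparisons turn on. Col4a1 and Col4a2 are shown because they share a start region. Col18a1 and Nid1 are shown because they too were higher in each Sox17-deficient library than in the control of its set, and bases upstream of all their annotated exons were at hand. Gene positions are from GENCODE vM21 on GRCm38 (mm10), and the promoter bases from RefSeq, GRCm38.p6. Col4a1 (chr8:11198423-11312826, minus strand) and Col4a2 (chr8:11312805-11449287, plus strand) encode the chains of the most widespread collagen IV network and are transcribed away from each other. Their annotated starts overlap by 22 bases, chr8:11312805-11312826, printed on the plus strand. For Col18a1 (chr10:77166549-77166780) and Nid1 (chr13:13437352-13437550) the bases upstream of the first annotated exon are printed on the gene's own strand. Capitals mark a GC box (GGGCGG) or a CCAAT motif, on either strand.
Col4a1 and Col4a2 shared start: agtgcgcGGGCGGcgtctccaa
Col18a1 upstream: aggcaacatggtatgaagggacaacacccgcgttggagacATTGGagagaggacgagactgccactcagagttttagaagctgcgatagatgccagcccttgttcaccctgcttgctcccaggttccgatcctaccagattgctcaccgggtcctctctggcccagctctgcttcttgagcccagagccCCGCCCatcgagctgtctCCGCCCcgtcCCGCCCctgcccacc
Nid1 upstream: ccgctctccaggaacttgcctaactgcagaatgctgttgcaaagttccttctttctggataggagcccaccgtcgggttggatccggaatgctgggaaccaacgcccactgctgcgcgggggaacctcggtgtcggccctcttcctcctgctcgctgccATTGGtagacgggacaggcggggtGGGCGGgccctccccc
The stretch shared by Col4a1 and Col4a2 holds 1 GC box. That of Col18a1 holds 1 CCAAT motif and 3 GC boxes, and that of Nid1 holds 1 of each. Promoter windows of 300 bases were at hand for 31 of the 45 genes tested. A gene can have several windows, and those of Col4a1 and Col4a2 overlap. A GC box was found in 22 of these 34 windows (64.7%), against 35.7% of all 32851 windows. A CCAAT motif was found in 35.3% of those 34 windows, against 37.4% of all. The letters ACAAAG or ACAATG, used here as a short SOX motif, were found in 11.8% of them, against 28.6% of all windows, and in none of the stretches printed. No matches overlap in the stretches printed, and a match or its lack describes the letters only.

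Of the 61 genes, 57 had at least 1 count in at least 1 library and 17 had a count in all 10. Col22a1, Col24a1, Col8a2 and Lamb3 were at 0 in every library. Per library, 30 to 51 of the 61 genes had a count, and together they took 0.614% to 1.64% of the counts. The group was carried by few genes: 15 had a mean of 50 CPM or more over the 10 libraries, a limit chosen after the values were seen, and these held 96.8% to 99.3% of the summed CPM of the 61 in each library. Just inside that limit were Col13a1 and Nid2, at means of 68.4 and 65.4 CPM, and just outside it Col6a3 and Col15a1, at 23.6 and 23.1 CPM. Sparc and Fn1 alone made up 52.0% to 65.6% of the sum. After them came Col4a1, Hspg2, Agrn, Col4a2, Nid1, Lamb1, Lama4, Lamc1, Col18a1, Lamb2 and Lama5. They encode the chains of collagen IV, laminin chains of each kind, a nidogen, perlecan, agrin and the endostatin precursor, all parts of an endothelial basement membrane.

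**Figure D1:**
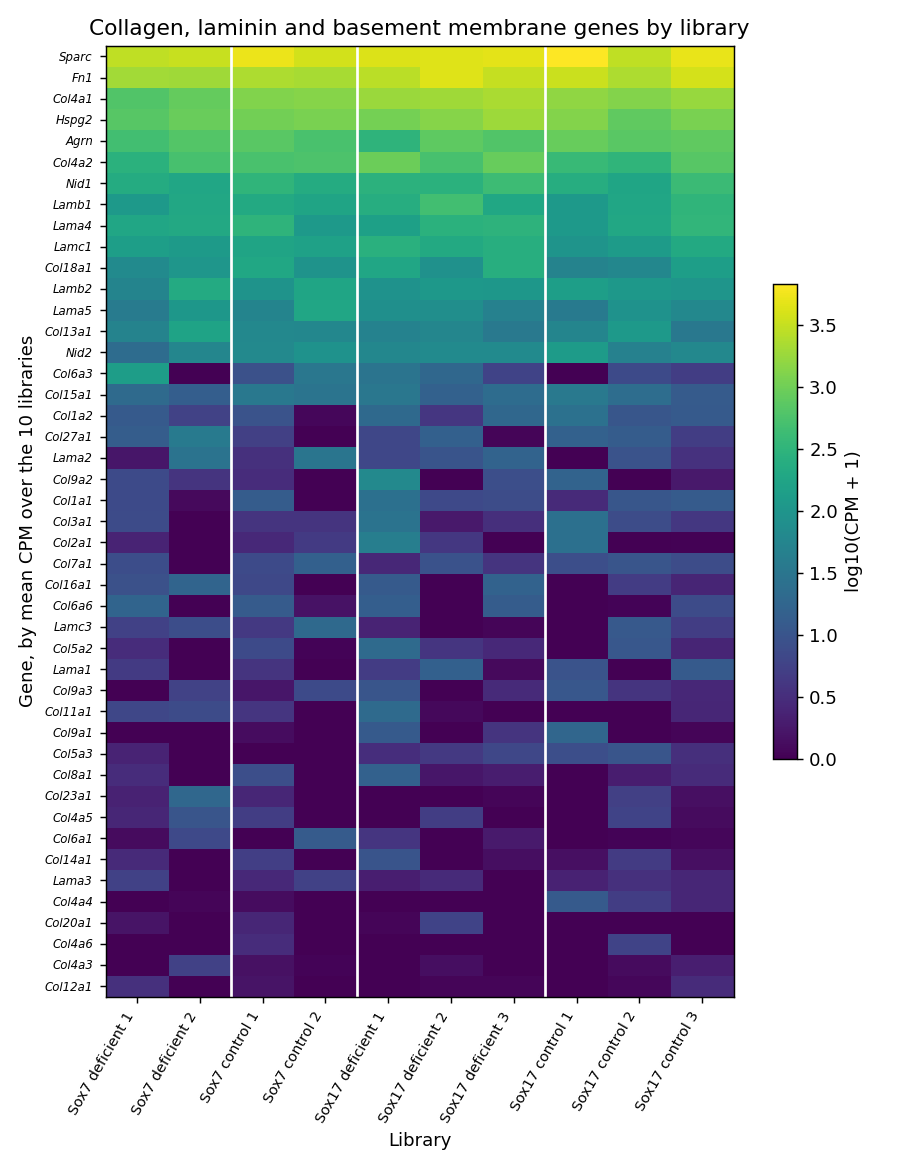
Level of each of the 45 tested genes (rows, ordered by mean CPM) in each of the 10 libraries (columns, deficient before control in each arm), as log10(CPM + 1) by colour. The 15 genes at the top, from Sparc to Nid2, were detected in every library, and most rows below them hold libraries at 0.

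A filter on low counts (filterByExpr) left 13040 genes to test, among them 45 of the 61. A gene that is high in 1 group only can pass that filter through this group. Counts were compared with edgeR's quasi-likelihood F-test on all 10 libraries, with Benjamini-Hochberg adjustment over the 13040 genes and a threshold of 0.05. None of the 45 genes passed that threshold in the Sox7 comparison, the Sox17 comparison or the difference between them. Nor did any of the 13040 genes (0% called), and the adjusted p was 1 for each of the 45 in each. Sox7 and Sox17, the targeted genes, were thus not called either, although each was lower in every library deficient for it. The spread between libraries was wide, with a common biological coefficient of variation of 0.989 in edgeR. A lack of calls therefore does not show a lack of change. At an unadjusted p under 0.05, 0 of the 45 were called in the Sox7 comparison, against 0.851% of all genes higher and 0.644% lower. In the Sox17 comparison 1 was higher (Col18a1; 0.752% of all genes) and 1 lower (Col4a4, which passed the filter through the Sox17 controls alone; 2.77%). The levels that follow are therefore values with their errors, and no gene of the group is called changed.

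The collagen IV genes Col4a1 and Col4a2 had lower levels in Sox7-deficient and higher levels in Sox17-deficient cells, and neither difference passed the test. Col4a1 had 607 and 836 CPM in Sox7-deficient libraries 1 and 2, against 1253 and 1375 CPM in Sox7 controls 1 and 2. The groups did not overlap, and both deficient libraries lay well under both controls. The means were 722 ± 162 CPM and 1314 ± 86.2 CPM (SD, n = 2 each), with a log2 fold change of −0.86 (SE 0.45) and an unadjusted edgeR p of 0.0684. In the other arm Col4a1 had 1819, 1907 and 2193 CPM in Sox17-deficient libraries 1, 2 and 3, against 1557, 1301 and 1739 CPM in Sox17 controls. All 3 deficient libraries lay above all 3 controls, although the gap between the groups was small. The log2 fold change was 0.36 (SE 0.36), from means of 1973 ± 196 CPM and 1532 ± 220.2 CPM (SD, n = 3 each). Set by set, on the log2(CPM + 1) scale, Col4a1 differed by −1.04 and −0.72 in Sox7 sets 1 and 2 and by 0.22, 0.55 and 0.33 in Sox17 sets 1, 2 and 3.

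Col4a2, the partner chain, had 281 and 520.1 CPM in Sox7-deficient libraries, against 529 and 579 CPM in Sox7 controls. Sox7-deficient 2 lay just under the lower control, and Sox7-deficient 1 far under it. The log2 fold change was −0.47 (SE 0.51), and −0.12 without Sox7-deficient 1. In the Sox17 arm Col4a2 had 923, 519.5 and 874 CPM in deficient libraries, against 383, 325 and 685 CPM in controls. Each deficient library was above the control of its own set, and the groups overlapped, since Sox17 control 3 was above Sox17-deficient 2. The log2 fold change was 0.73 (SE 0.42), with an unadjusted edgeR p of 0.0941, and 1.13 without Sox17 control 3. The ratio of Col4a1 to Col4a2, in CPM, was 2.16 and 1.61 in Sox7-deficient libraries, against 2.37 and 2.37 in Sox7 controls. It was 1.97, 3.67 and 2.51 in Sox17-deficient libraries, against 4.07, 4.01 and 2.54 in Sox17 controls. The ratio was lower than that of its set's control in all 5 sets, by little in Sox17 set 3. Over the groups this gave a two-sided exact permutation p of 0.333 for Sox7, the smallest that 6 splits allow, and 0.2 for Sox17, where 20 splits allow 0.1. Permuted within sets, p was 0.5 and 0.25, the smallest that 2 and 3 sets allow. The ratios of Lama4 to Lama5, Lamb1 to Lamb2 and Nid1 to Nid2 were also taken, and none kept 1 direction in all 5 sets. For Lamb1 to Lamb2 and Nid1 to Nid2 the exact permutation p over the groups was 0.667 in both for Sox7, and 0.4 and 0.5 for Sox17. The strand setting of the counting is not given in the sources used here. The 22 shared bases lie at the 5′ ends of both genes, away from where the tags arise. Exons of Col4a2 also overlap Gm15419 on the opposite strand, so reads of that pair may not have been told apart.

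**Figure D2:**
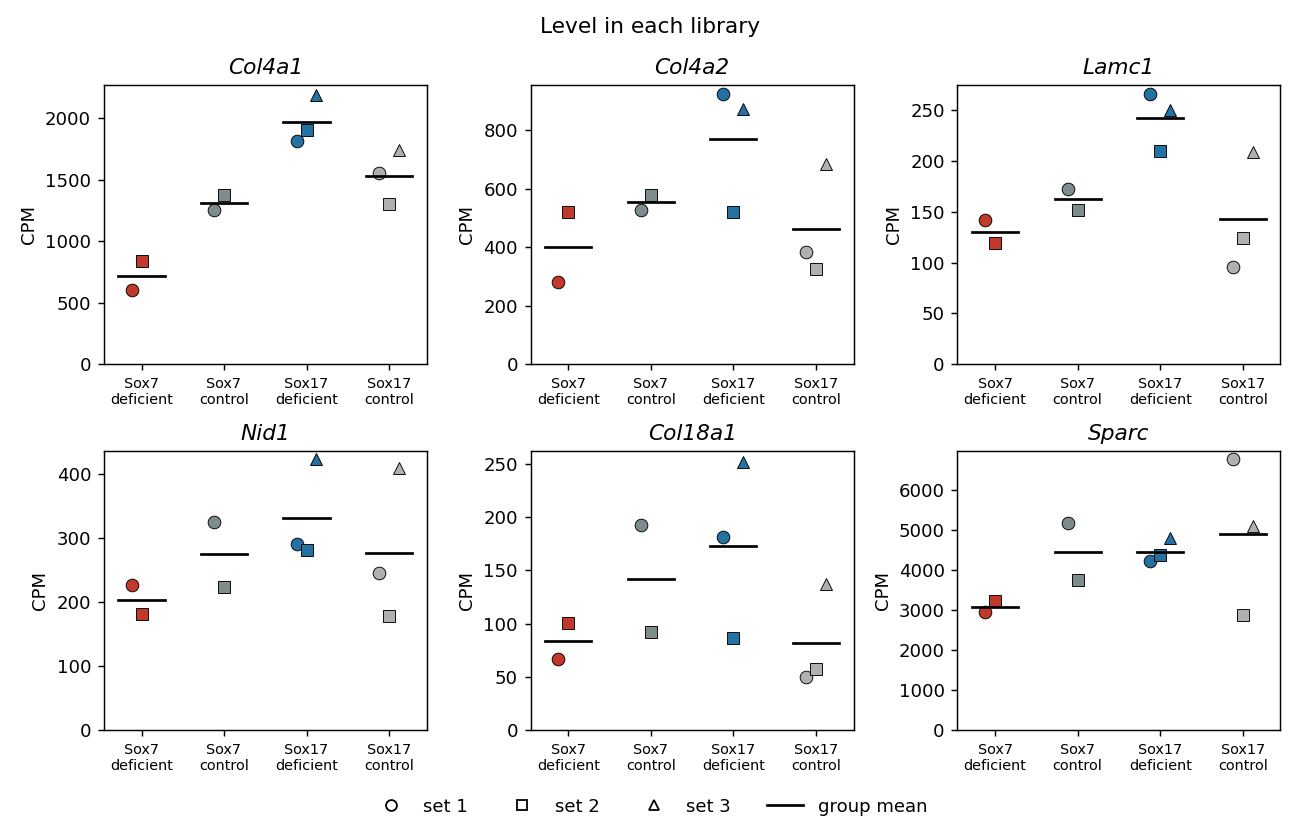
CPM of Col4a1, Col4a2, Lamc1, Nid1, Col18a1 and Sparc in each library, with the marker shape giving the set and the bar the group mean (n = 2 per Sox7 group, n = 3 per Sox17 group). For Col4a1 both Sox7-deficient libraries sit under both controls and all 3 Sox17-deficient libraries above all 3 controls, and no difference shown passed edgeR's adjusted threshold.

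The remaining collagen IV chains, which form the networks known from kidney, lung and cochlea, were sparse. Col4a3 had 0 and 4.51 CPM in Sox7-deficient against 0.479 and 0.0922 CPM in Sox7 control libraries, and 0, 0.367 and 0 CPM in Sox17-deficient against 0, 0.316 and 1.11 CPM in Sox17 control libraries. Col4a5 had 1.59 and 9.29 CPM in Sox7-deficient against 3.95 and 0 CPM in Sox7 control libraries, and 0, 4.01 and 0 CPM in Sox17-deficient against 0, 4.82 and 0.31 CPM in Sox17 control libraries. Both genes had libraries at 0 in both arms. Col4a6 had a count only in Sox7 control 1 (2.04 CPM) and Sox17 control 2 (4.9 CPM). Col4a4 had 0, 0 and 0 counts in Sox17-deficient libraries, against 25, 51 and 25 counts (11.3, 4.03 and 1.55 CPM) in Sox17 controls. It was the only gene of the 45 for which every Sox17-deficient library lay below every control (2.22%, against 4.23% of all genes tested). Against a floor of 3 counts per library, averaged over the group, Col4a4 was at least 19.5-fold lower in Sox17-deficient cells, a bound that was 9.62-fold without Sox17 control 1, the shallowest library. All the libraries in which Col4a4 reached the filter's limit on low counts were Sox17 controls, so its difference is a description and supports nothing. In the Sox7 arm Col4a4 had 0 and 0.133 CPM in deficient libraries, against 0.359 and 0 CPM in controls.

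Among the laminin genes, Lamc1 (chr1:153218922-153332786, minus strand), which encodes the gamma chain of nearly all vascular laminins, had the same pattern as Col4a1. It had 142 and 119 CPM in Sox7-deficient libraries, against 173 and 152 CPM in Sox7 controls, and 266, 209.9 and 251 CPM in Sox17-deficient libraries, against 95.3, 124 and 209 CPM in Sox17 controls. Groups did not overlap in either arm, although the lowest Sox17-deficient library exceeded the highest control by little. The log2 fold changes were −0.32 (SE 0.47) for Sox7 and 0.76 (SE 0.39) for Sox17, the second with an unadjusted edgeR p of 0.0642; with libraries scaled by their pan-endothelial counts, which moved the median of all genes up by 0.48, the Sox7 value was 0.17. Without Sox7-deficient 2 the Sox7 value was −0.20, and without Sox17 control 3 the Sox17 value was 1.14. By set, Lamc1 differed by −0.29 and −0.35 in the Sox7 arm and by 1.47, 0.75 and 0.26 in the Sox17 arm. Col4a1 and Lamc1 were the only genes of the 45 with every Sox17-deficient library above every control (4.44%, against 4.13% of all genes tested).

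Lama4 and Lama5 encode the alpha chains of the endothelial laminins; the laminin with the Lama5 chain is known for its part in barrier function and in where leukocytes cross. Lama4 had 186 and 204 CPM in Sox7-deficient against 307 and 116 CPM in Sox7 control libraries, and 151, 277 and 301 CPM in Sox17-deficient against 116, 200.4 and 334 CPM in Sox17 control libraries. Lama5 had 37.8 and 107 CPM in Sox7-deficient against 51.8 and 184 CPM in Sox7 control libraries, and 79.4, 77.6 and 46.6 CPM in Sox17-deficient against 35.9, 90 and 59.5 CPM in Sox17 control libraries. For these alpha chain genes the groups overlapped in both arms. The Sox7 sets went opposite ways for Lama4 (−0.72 and 0.81), and the Sox17 sets did not share a direction for Lama5 (1.13, −0.21 and −0.34). The log2 fold changes of Lama4 were −0.12 (SE 0.56) for Sox7 and 0.16 (SE 0.46) for Sox17. Those of Lama5 were −0.70 (SE 0.66) and 0.13 (SE 0.53). The ratio of Lama4 to Lama5 spanned 0.631 (Sox7 control 2) to 6.45 (Sox17-deficient 3) without separating the groups, with an exact permutation p of 1 in both arms.

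The beta chain genes Lamb1 and Lamb2 were both abundant. Lamb1 had 114 and 198 CPM in Sox7-deficient against 211 and 174 CPM in Sox7 control libraries, and 240.5, 471 and 191 CPM in Sox17-deficient against 114, 183 and 320.0 CPM in Sox17 control libraries. Its highest value was in Sox17-deficient 2, and its differences by set were −0.89 and 0.19 in the Sox7 arm and 1.07, 1.36 and −0.74 in the Sox17 arm. Lamb2, known from the basement membranes of mature vessels and synapses, had 53.1 and 221 CPM in Sox7-deficient against 93.4 and 178 CPM in Sox7 control libraries, and 87.5, 109.7 and 105 CPM in Sox17-deficient against 139.8, 111 and 97.7 CPM in Sox17 control libraries. Lamb2 was low in both set 1 libraries and high in both set 2 libraries of the Sox7 arm, so that the log2 fold change of 0.016 (SE 0.57) covers opposite sets (−0.80 and 0.31). In the Sox17 arm Lamb1 was at 0.55 (SE 0.45) and Lamb2 at −0.20 (SE 0.47).

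Of the other laminin chains only 4 could be tested, all sparse. Lama1, known from embryonic and glial basement membranes, had 3.46 and 0 CPM in Sox7-deficient against 2.75 and 0 CPM in Sox7 control libraries, and 3.85, 14.1 and 0.248 CPM in Sox17-deficient against 8.62, 0 and 11 CPM in Sox17 control libraries. Lama2, an alpha chain of astrocyte end-feet, pericytes and muscle, had 0.722 and 27.9 CPM in Sox7-deficient against 2.39 and 29.6 CPM in Sox7 control libraries, and 5.5, 8.97 and 15.4 CPM in Sox17-deficient against 0, 8.53 and 2.54 CPM in Sox17 control libraries. Lama2 was lower than its set's control in both Sox7 sets and higher in all 3 Sox17 sets, at levels of 0 to 29.6 CPM. Lama3, an epithelial alpha chain, had 4.47 and 0 CPM in Sox7-deficient against 1.8 and 4.42 CPM in Sox7 control libraries, and 1.1, 1.83 and 0 CPM in Sox17-deficient against 1.36, 2.37 and 1.61 CPM in Sox17 control libraries. Lamc3, a gamma chain found in the basement membrane of brain vessels and retina, had 4.47 and 7.03 CPM in Sox7-deficient against 3.35 and 19.2 CPM in Sox7 control libraries, and 1.38, 0 and 0.124 CPM in Sox17-deficient against 0, 10.9 and 4.03 CPM in Sox17 control libraries. None of these genes had a count in every library.

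Nidogens link the collagen IV and laminin networks. Nid1 (chr13:13437551-13512269, plus strand) had 226 and 181 CPM in Sox7-deficient libraries, against 324 and 224 CPM in Sox7 controls, and 291, 281 and 423 CPM in Sox17-deficient libraries, against 245, 178 and 409 CPM in Sox17 controls. Groups overlapped in both arms, but within each set the deficient library was lower in the Sox7 arm (−0.52 and −0.30) and higher in the Sox17 arm (0.25, 0.66 and 0.050). Its log2 fold changes were −0.43 (SE 0.49) and 0.26 (SE 0.40), each within its standard error of 0. Nid2 (chr14:19751265-19811787, plus strand) had 21.4 and 56.9 CPM in Sox7-deficient against 63.6 and 89.8 CPM in Sox7 control libraries, and 57.9, 66.9 and 66 CPM in Sox17-deficient against 125, 46.5 and 60.5 CPM in Sox17 control libraries. Both Sox7-deficient libraries lay below both controls, at a log2 fold change of −0.97 (SE 0.61), which was −0.45 without Sox7-deficient 1 and −1.84 without Sox7-deficient 2. In the Sox17 arm Nid2 was at −0.27 (SE 0.49), with its highest level in Sox17 control 1. The exons of Nid1 and Nid2 each overlap a gene on the opposite strand (Gm48682 and Rtraf), so reads of these pairs may not have been told apart.

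The heparan sulfate proteoglycan genes were abundant. Hspg2 (chr4:137468769-137570630, plus strand), which encodes perlecan, had 679 and 915 CPM in Sox7-deficient libraries, against 1041 and 1129 CPM in Sox7 controls, and 1063, 1355 and 1872 CPM in Sox17-deficient libraries, against 1327, 796 and 1167 CPM in Sox17 controls. Its Sox7 groups did not overlap and its Sox17 groups did, with log2 fold changes of −0.44 (SE 0.47) and 0.38 (SE 0.38). Agrn (chr4:156165290-156197488, minus strand), which encodes agrin, had 462 and 649 CPM in Sox7-deficient against 719 and 536 CPM in Sox7 control libraries, and 309.9, 771 and 609 CPM in Sox17-deficient against 879, 712 and 779 CPM in Sox17 control libraries. Sox17-deficient 1 had the lowest level of Agrn, and the Sox17 sets differed by −1.50, 0.12 and −0.36. The log2 fold changes of Agrn were −0.18 (SE 0.49) for Sox7 and −0.49 (SE 0.40) for Sox17.

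Sparc (chr11:55394500-55423183, minus strand) encodes a secreted protein that binds collagen IV and is abundant in growing and tumour vessels, and it had the highest mean of the 61 genes. It had 2942 and 3215 CPM in Sox7-deficient libraries, against 5167 and 3743 CPM in Sox7 controls, and 4210.3, 4359 and 4786 CPM in Sox17-deficient libraries, against 6772, 2862 and 5084 CPM in Sox17 controls. Both Sox7-deficient libraries were below both controls, while the Sox17 controls spanned a range that includes all 3 deficient libraries. The log2 fold changes were −0.53 (SE 0.50) for Sox7 and −0.14 (SE 0.40) for Sox17. Fn1 (chr1:71585520-71653200, minus strand), which encodes fibronectin, a matrix protein of the tumour vessel wall, had 2021 and 1911 CPM in Sox7-deficient against 2282 and 2165 CPM in Sox7 control libraries, and 2695, 4437 and 3162 CPM in Sox17-deficient against 3375, 2262 and 3852 CPM in Sox17 control libraries. Its Sox7 groups also did not overlap, at a small log2 fold change of −0.18 (SE 0.47), and its Sox17 groups overlapped widely, at 0.12 (SE 0.38). An exon of Fn1 overlaps Apol7d on the opposite strand.

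Collagens XV and XVIII carry heparan or chondroitin sulfate chains and sit at the outer face of the basement membrane, and a fragment of collagen XVIII is endostatin, an inhibitor of vessel growth. Col18a1 (chr10:77052178-77166548, minus strand) had 66.7 and 101 CPM in Sox7-deficient libraries, against 193 and 91.9 CPM in Sox7 controls. Sox7 control 2 lay under Sox7-deficient 2, so the groups overlapped, and the sets differed by −1.52 and 0.13. In the Sox17 arm Col18a1 had 181, 86.4 and 252 CPM in deficient libraries, against 50.4, 57.9 and 138 CPM in controls. Every deficient library was above its own set's control, by 1.83, 0.57 and 0.87, although Sox17 control 3 was above Sox17-deficient 2. The log2 fold changes were −0.77 (SE 0.61) for Sox7 and 1.08 (SE 0.50) for Sox17, the second with an unadjusted edgeR p of 0.0439 and an adjusted p of 1. The Sox7 value was −0.16 without Sox7 control 1 and −1.21 without Sox7 control 2, and the Sox17 value was 0.70 without Sox17-deficient 3 and 1.68 without Sox17 control 3. Col15a1 was lower in abundance, at 19.8 and 12.7 CPM in Sox7-deficient against 32.7 and 29.2 CPM in Sox7 control libraries, and 32.5, 14.6 and 21.3 CPM in Sox17-deficient against 34, 22.4 and 11.6 CPM in Sox17 control libraries. Its Sox7 groups did not overlap, with both deficient libraries below both controls, and its Sox17 groups overlapped over nearly their whole range. Col8a1, a short-chain collagen made by endothelial and smooth muscle cells, had 2.02 and 0 CPM in Sox7-deficient against 7.18 and 0 CPM in Sox7 control libraries, and 14.7, 0.677 and 0.993 CPM in Sox17-deficient against 0, 1.03 and 1.92 CPM in Sox17 control libraries.

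Col13a1 (chr10:61838236-61979108, minus strand), which encodes a transmembrane collagen, had 51.5 and 167 CPM in Sox7-deficient against 61.2 and 59 CPM in Sox7 control libraries, and 48.7, 55.5 and 35 CPM in Sox17-deficient against 54.9, 117 and 33 CPM in Sox17 control libraries. The Sox7 estimate of 0.87 (SE 0.65) rested on Sox7-deficient 2, since it was −0.22 without that library. The Sox17 estimate of −0.56 (SE 0.53) rested on Sox17 control 2, without which it was 0.079. Col23a1, another transmembrane collagen, had 1.3 and 17.9 CPM in Sox7-deficient against 1.56 and 0 CPM in Sox7 control libraries, and 0, 0 and 0.124 CPM in Sox17-deficient against 0, 4.35 and 0.433 CPM in Sox17 control libraries. Here too Sox7-deficient 2 stood apart from the other 9 libraries, of which 4 had no count.

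Fibrillar collagens, the main product of fibroblasts, were sparse next to the collagen IV genes Col4a1 and Col4a2. Col1a1 had 6.21 and 0.265 CPM in Sox7-deficient against 12 and 0 CPM in Sox7 control libraries, and 24.9, 5.95 and 6.82 CPM in Sox17-deficient against 1.82, 9.72 and 11.6 CPM in Sox17 control libraries. Col1a2, its partner in type I collagen, had 11.1 and 4.78 CPM in Sox7-deficient against 8.62 and 0.184 CPM in Sox7 control libraries, and 19.5, 2.99 and 18 CPM in Sox17-deficient against 26.3, 9.72 and 11.2 CPM in Sox17 control libraries. Col3a1, the type III chain, had 6.49 and 0 CPM in Sox7-deficient against 2.75 and 2.77 CPM in Sox7 control libraries, and 27.5, 0.847 and 2.23 CPM in Sox17-deficient against 25, 6.79 and 3.16 CPM in Sox17 control libraries. These genes reached 27.5 CPM at most, while Col4a2 had 281 CPM in its lowest library, and for all 3 the groups overlapped in both arms. The 12 fibroblast markers listed were low as well. They summed to 22.7 to 22.8 CPM in Sox7-deficient libraries, against 0.5 to 15 CPM in Sox7 controls, and to 10.9 to 18.7 CPM in Sox17-deficient libraries, against 1.4 to 9.5 CPM in Sox17 controls. Of the 12, 6 were at 0 throughout the Sox7-deficient group (Pdgfra and Lum among them), against 5 in the Sox7 controls, and 2 in the Sox17-deficient group, against 2 in the Sox17 controls. The part of these markers in the fibrillar levels was not tested.

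Collagens V and XI nucleate fibrils of types I and II. Col5a2 had 2.02 and 0 CPM in Sox7-deficient against 6.35 and 0.0922 CPM in Sox7 control libraries, and 19.9, 2.88 and 1.74 CPM in Sox17-deficient against 0, 9.88 and 1.49 CPM in Sox17 control libraries. Col5a3 was at 1.44 and 0 CPM in Sox7-deficient libraries, against 0 in both Sox7 controls, and had 2.2, 3.3 and 5.46 CPM in Sox17-deficient against 7.26, 9.09 and 2.23 CPM in Sox17 control libraries. For both genes the groups overlapped in both arms. Col11a1 had 5.63 and 6.64 CPM in Sox7-deficient against 2.87 and 0 CPM in Sox7 control libraries, and 19.8, 0.198 and 0 CPM in Sox17-deficient against 0, 0 and 1.61 CPM in Sox17 control libraries. The cartilage collagen Col2a1 had 1.44 and 0 CPM in Sox7-deficient against 1.8 and 3.41 CPM in Sox7 control libraries, and 42.4, 3.19 and 0 CPM in Sox17-deficient against 24.5, 0 and 0.0619 CPM in Sox17 control libraries. Sox17-deficient 1 held the highest level of Col1a1, Col3a1, Col5a2, Col11a1 and Col2a1 among the 10 libraries. Col27a1, a fibrillar chain of developing cartilage, had 12.6 and 36.8 CPM in Sox7-deficient against 4.31 and 0 CPM in Sox7 control libraries, and 5.5, 13.9 and 0.124 CPM in Sox17-deficient against 14.5, 12.2 and 3.96 CPM in Sox17 control libraries; both Sox7-deficient libraries were above both controls. Col11a1, Col16a1 and Col9a2 had the same order in the Sox7 arm, so that 4 of the 45 genes had every Sox7-deficient library above every control (8.89%, against 12.7% of all genes tested).

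Collagen VI forms beaded microfibrils around pericytes, fibroblasts and macrophages. Col6a3 had 135 and 0 CPM in Sox7-deficient against 7.9 and 31.8 CPM in Sox7 control libraries, and 28.6, 18.1 and 4.84 CPM in Sox17-deficient against 0, 6.24 and 4.03 CPM in Sox17 control libraries. By far the highest level was that of Sox7-deficient 1, the library with 14888 CPM of macrophage markers, whose part in it was not tested. Col6a1 had 0.289 and 6.1 CPM in Sox7-deficient against 0 and 11.4 CPM in Sox7 control libraries, and 2.89, 0.0282 and 0.868 CPM in Sox17-deficient against 0, 0.079 and 0.186 CPM in Sox17 control libraries, and Col6a2, Col6a4 and Col6a5 were too sparse to test. Of the collagen IX genes of cartilage, Col9a1 was at 0 in both Sox7-deficient libraries, against 0.359 and 0 CPM in Sox7 controls, and had 11, 0 and 2.73 CPM in Sox17-deficient against 17.2, 0 and 0.124 CPM in Sox17 control libraries. Col9a2 had 6.21 and 2.79 CPM in Sox7-deficient against 2.04 and 0 CPM in Sox7 control libraries, and 62.3, 0 and 7.32 CPM in Sox17-deficient against 15.4, 0 and 0.805 CPM in Sox17 control libraries. Both genes were highest in the 2 libraries of Sox17 set 1. Col20a1, a collagen that lies along fibrils, was at 0.138, 4.97 and 0 CPM in Sox17-deficient libraries, against 0 in all 3 Sox17 controls, and had 0.577 and 0 CPM in Sox7-deficient against 1.56 and 0 CPM in Sox7 control libraries. Against the floor of 3 counts per library, averaged over the group, the Sox17-deficient mean of Col20a1 was at least 2.86-fold higher. That mean rests on Sox17-deficient 2 (176 counts), since Sox17-deficient 1 and 3 had 1 and 0 counts, under the floor. It is thus no bound on the group. The other 6 genes tested, Col7a1, Col16a1, Col6a6, Col9a3, Col14a1 and Col12a1, ranged from 0 to 16.2 CPM over the 10 libraries.

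Over the whole group, more genes lay below 0 than above it in the Sox7 comparison with TMM scaling. With pan-endothelial scaling about as many lay below as above, and the median of all genes moved up by 0.48. The scalings differ by nearly the same shift for every gene, so neither adds support to the other. Of the 45 genes tested, 29 had a log2 fold change below 0 (64.4%, against 47.5% of all 13040 genes), with a median of −0.43 against 0.037, while pan-endothelial scaling left 22 of the 45 below 0 (48.9%, against 26.8% of all genes). With the 3 genes that have a group at 0 set to their floor, the median was −0.32, and without Sox7 control 1 it was 0.028. Every Sox7-deficient library lay below every control for 9 of the 45 (20%, against 12.8% of all genes): Col4a1, Col4a2, Fn1, Hspg2, Lamc1, Nid2, Sparc, Col15a1 and Col2a1. Among the 15 genes of 50 CPM or more, 13 were below 0 (86.7%, against 52.5% of the 3594 genes at that level), at a median of −0.43 against −0.027; with libraries scaled by their pan-endothelial counts, 7 of the 15 were (46.7%, against 19.3% at that level). For 7 of the 15 every deficient library lay below every control (46.7%, against 15.2%), for 0 it lay above every control (10.4%), and for 9 the deficient library was the lower one in both sets (60%, against 29%). Of the 20 pan-endothelial markers, 10 also had every Sox7-deficient library below every control, against 12.8% of all genes. That separation was thus not particular to the matrix genes. The medians of the set differences over the 15 were −0.72 and −0.18 in sets 1 and 2. When Sox7-deficient 1, the library with the high macrophage markers, was left out, 11 of the 15 were below 0, at a median of −0.25, and Col4a1 was at −0.68. Without Sox7 control 1 the median was also −0.25, with 12 of the 15 below 0. Standard errors of the 15 ran from 0.45 to 0.66.

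In the Sox17 comparison the shares of the 45 genes were close to those of all genes. There 24 of the 45 were above 0 (53.3%, against 52.8% of all genes), at a median of 0.12 against 0.047, which was −0.29 without Sox17-deficient 1 and 0.32 without Sox17 control 3. Among the 15 abundant genes 10 were above 0 (66.7%, against 54.2%), at a median of 0.16 against 0.045, and the medians of the set differences were 0.22, 0.57 and 0.082. Col4a1, Col4a2, Lamc1, Nid1 and Col18a1 were higher than the control in all 3 sets (5 of 15, 33.3%, against 18.3% of genes at that level). Of the 15, 2 had every deficient library above every control (13.3%, against 4.9%) and 0 had every one below (4.92%). Standard errors of the 15 ran from 0.36 to 0.53. Of the Sox17 arm, Sox17-deficient 1 and 3 had the highest levels of Col4a2, Lamc1 and Col18a1, and Sox17 control 3 was the highest control for Col4a1, Col4a2, Lamc1, Nid1 and Col18a1.

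**Figure D3:**
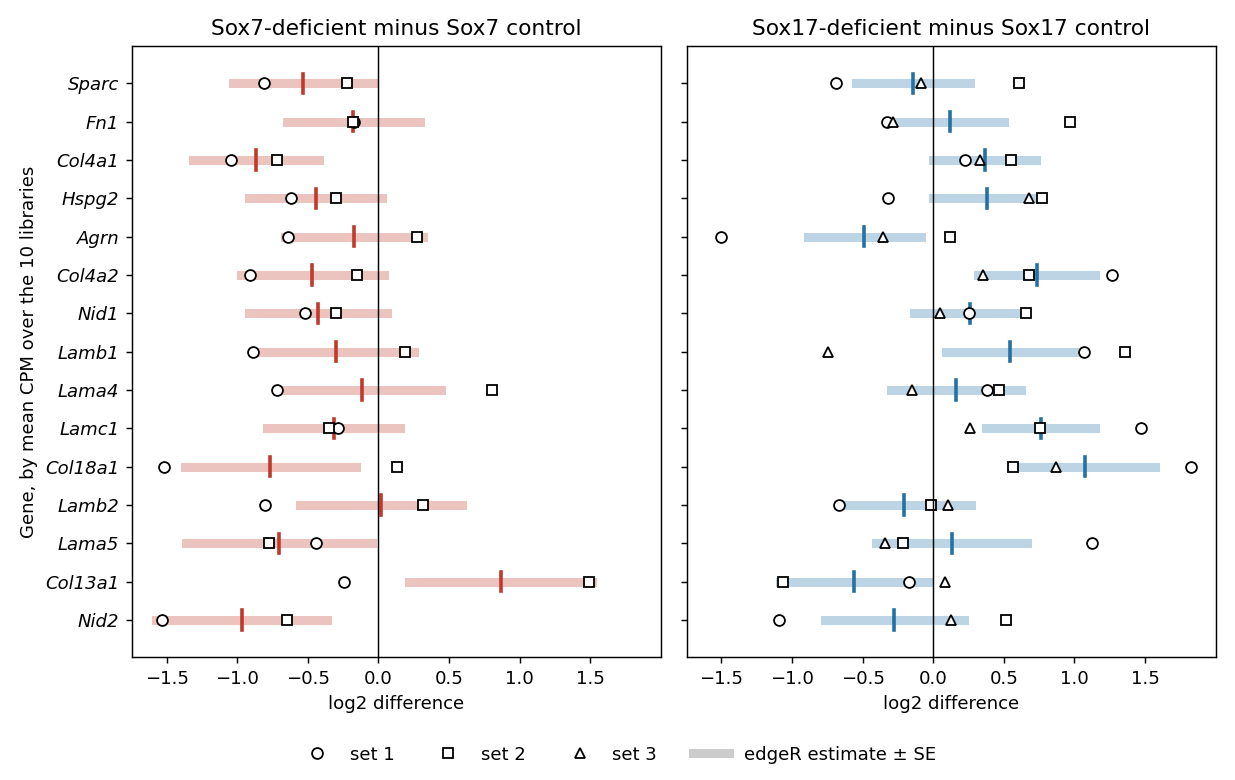
Difference of the deficient from the control library of each set, as log2(CPM + 1), for the 15 genes of 50 CPM or more (open markers), with edgeR's log2 fold change and its standard error (bar and band), for the Sox7 arm (left) and the Sox17 arm (right). In the Sox7 arm 13 of 15 estimates lie below 0 (7 of 15 when libraries are scaled by pan-endothelial counts, against 19.3% of all genes at that level), in the Sox17 arm 10 of 15 lie above it, and none passed the adjusted threshold.

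The arms were set against each other in the same edgeR fit, as the Sox7 log2 fold change minus the Sox17 one, with separate controls. The difference was −1.23 (SE 0.57) for Col4a1, with an unadjusted p of 0.0461, and −1.84 (SE 0.78) for Col18a1, with an unadjusted p of 0.0304. It was −1.20 (SE 0.66) for Col4a2, −1.08 (SE 0.61) for Lamc1 and −0.69 (SE 0.63) for Nid1, with unadjusted p of 0.0834, 0.0938 and 0.288. The adjusted p was 1 for all of them, so none is shown to differ between the arms. Col4a1 and Col18a1 were the 2 of 45 genes with an unadjusted p under 0.05 and a negative difference (4.44%, against 0.874% of all genes), and 0 of the 45 had a positive one (1.99%). In either direction it was 0 of the 45 with pan-endothelial scaling and also without Sox17 control 2, and 1 to 4 under the other alternatives. The difference for Col18a1 was −1.21 without Sox7 control 1. Counted after these values were seen, Col4a1, Col4a2, Lamc1 and Nid1 were lower in both Sox7 sets and higher in all 3 Sox17 sets, which is 4 of the 15 abundant genes (26.7%, against 4.65% of genes at that level). The opposite order held for 0 of the 15 (1.92%) and for 0 of the 45 (2.19% of all genes). With Lama2 the count was 5 of the 45 tested (11.1%, against 3.08% of all genes). None of the 45 was higher in all 5 sets (3.32% of all genes) or lower in all 5 (3.34%). Among the 20 pan-endothelial markers, Eng, Egfl7, Vwf, Icam2 and Tal1 were also lower in both Sox7 sets and higher in all 3 Sox17 sets. The other markers of that list were not. The order was thus not particular to the matrix genes. Scaled by pan-endothelial counts, the Sox7 estimates of Lamc1 and Nid1 were 0.17 and 0.071, and those of Col4a1 and Col4a2 −0.45 and −0.088. The median of all genes was then 0.52. All 4 lay below it, which the scaling could hardly change, since it moves all genes of a library alike.

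Endothelial markers were also lower in Sox7-deficient libraries. The 20 pan-endothelial genes summed to 11231 to 15913 CPM in Sox7-deficient libraries, against 17188 to 19128 CPM in Sox7 controls, and 18 of the 20 had a Sox7 log2 fold change below 0 (90%, against 47.5% of all genes and 52.5% of those at 50 CPM or more), at a median of −0.48 against 0.037. The medians of their set differences were −0.87 and −0.20 in Sox7 sets 1 and 2, against 0.027 and 0 for all genes. The lowest sum was that of Sox7-deficient 1, the library with the high macrophage markers. For Sox17 the 20 genes summed to 12210 to 21595 CPM in deficient libraries, against 15611 to 17680 CPM in controls, at a median of 0.12. In such bulk samples fewer endothelial cells and less RNA per endothelial cell cannot be told apart, and the part of these markers in the matrix levels was not tested. The libraries were also scaled by the summed pan-endothelial counts, a scaling chosen after these sums were seen. In the Sox7 comparison the median of the 15 abundant genes was then 0.071, and that of the 20 pan-endothelial markers −0.073. The median of all genes moved up by 0.48, and the 15 lay 0.45 below it. Such a scaling moves all genes of a library alike, so that gap was nearly fixed in advance and supports nothing. Set against the pan-endothelial sum of its own library, Col4a1 was 5.41 and 5.25% in Sox7-deficient libraries, against 6.55 and 8% in Sox7 controls. It was 14.9, 8.83 and 11.2% in Sox17-deficient libraries, against 9.97, 7.36 and 9.88% in Sox17 controls. On that measure too Col4a1 was lower in each Sox7 set and higher in each Sox17 set, and the Sox17 groups overlapped. Col4a2 had that order as well, while Lamc1, Fn1 and Sparc did not. In Sox7 set 1 Lamc1 was 1.26% in the deficient library, against 0.904% in the control, and Fn1 was 18%, against 11.9%. Sparc was lower in both Sox7 sets, and also in Sox17 set 1, at 34.5%, against 43.4%.

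Pericytes also lay down vascular basement membrane. Their 12 markers summed to 1157 to 1246 CPM in Sox7-deficient libraries, against 1297 to 1528 CPM in Sox7 controls, and to 959 to 4483 CPM in Sox17-deficient libraries, against 1318 to 2342 CPM in Sox17 controls. All 12 pericyte markers had counts in each group, and Mcam, which endothelium also makes, was most of the sum in 8 of the 10 libraries. In the Sox7 arm 8 of the 12 had a log2 fold change above 0 (66.7%, against 51.9% of all genes), at a median of 0.48 against 0.037, although the sums were lower in deficient libraries. Of the 12, 10 were below 0 in the Sox17 arm (83.3%, against 47.1% of all genes), at a median of −0.84 against 0.047. Without Mcam, set aside after the sums were seen, the other 11 summed to 346 to 718 CPM in Sox7-deficient libraries, against 356 to 421 CPM in Sox7 controls, and to 245 to 271 CPM in Sox17-deficient libraries, against 301 to 871 CPM in Sox17 controls. Rgs5, a pericyte signalling regulator named after its values were seen, had 92.6, 58.6 and 48.5 CPM in Sox17-deficient libraries, against 640.3, 208 and 115 CPM in Sox17 controls, at a log2 fold change of −2.27 with an unadjusted edgeR p of 0.00154 and an adjusted p of 1. The 8 smooth muscle markers summed to 222 to 228 CPM in Sox7-deficient libraries, against 171 to 275 CPM in Sox7 controls, and to 193 to 297 CPM in Sox17-deficient libraries, against 164 to 541 CPM in Sox17 controls. Sox17 control 1, the shallowest library, also held 2910 CPM of the 7 erythroid markers, against 429.9 CPM or less in the others, and had the highest Sparc. The part of these markers in the levels was not tested. The Sox17 log2 fold change of Sparc was 0.15 without that library.

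**Figure D4:**
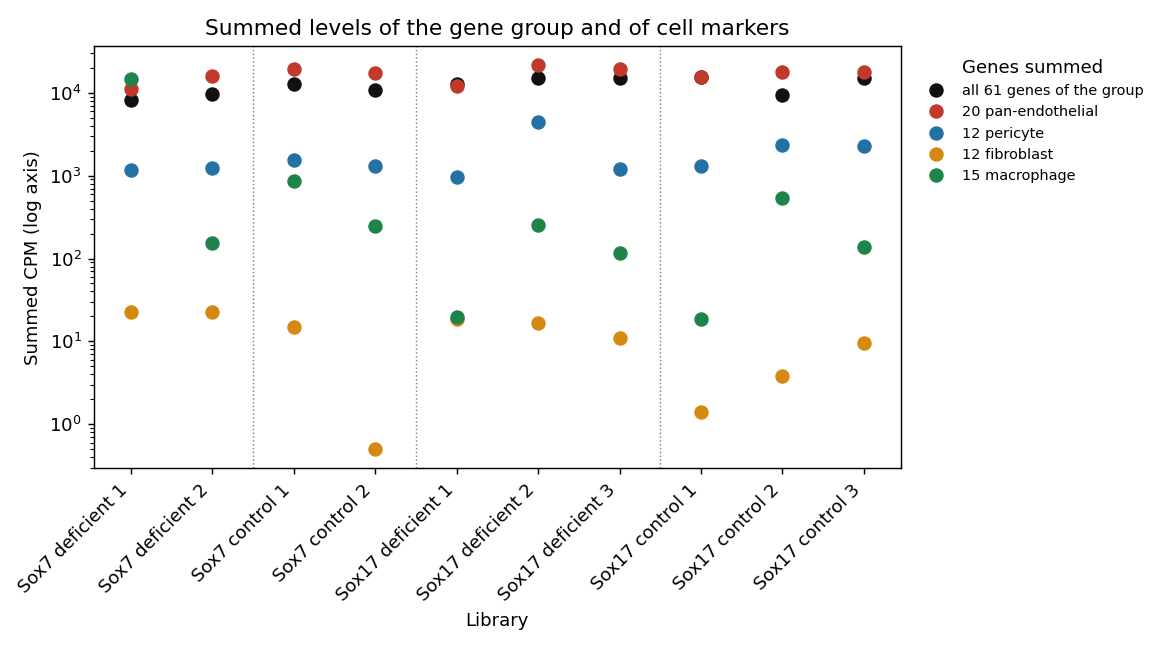
Summed CPM (log axis) of the 61 genes and of 4 marker lists in each library, with dotted lines between the groups. The 20 pan-endothelial genes and the 61 genes lie within the same order of magnitude in all 10 libraries, the 15 macrophage markers reach 14888 CPM in Sox7-deficient 1, and the 12 fibroblast markers stay at 22.8 CPM or less.

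Genes that modify, fold and export collagens were listed as well: 27 of 32 could be tested and none was called at the adjusted threshold in either comparison. In the Sox7 comparison 16 of them lay below 0 (59.3%, against 47.5% of all genes) and 10 above it, at a median of −0.26 against 0.037. In the Sox17 comparison 19 lay above 0 (70.4%, against 52.8% of all genes) and 8 below it, at a median of 0.34 against 0.047. Mia3, which encodes a loader of procollagen at endoplasmic reticulum exits, had 96.7 and 51.4 CPM in Sox7-deficient libraries, against 123 and 184 CPM in Sox7 controls. Both deficient libraries were below both controls, at a log2 fold change of −1.05 (SE 0.52). Pxdn, whose peroxidase makes the sulfilimine crosslinks of collagen IV, had 16.7 and 14.7 CPM in Sox7-deficient libraries, against 35.7 and 36.5 CPM in Sox7 controls, again without overlap. Lox, a lysyl oxidase, had a count in only 1 of the 4 Sox7 arm libraries, at 1.56 CPM in Sox7 control 1. In the Sox17 arm Plod1, a lysyl hydroxylase, had 137, 244 and 173 CPM in Sox17-deficient libraries, against 26.3, 130.3 and 115 CPM in Sox17 controls, at a log2 fold change of 1.02 (SE 0.49). Each deficient library was above all 3 controls, and the log2 fold change of Plod1 was 0.58 without Sox17 control 1, the shallowest library. Colgalt2, a collagen galactosyltransferase, had 52.5, 62.6 and 56.3 CPM in Sox17-deficient libraries, against 137, 108 and 79.1 CPM in Sox17 controls; it was below its control in all 3 sets, at −0.92 (SE 0.42), with an unadjusted edgeR p of 0.0413. Loxl1, another lysyl oxidase, had 2.48, 2.09 and 0.124 CPM in Sox17-deficient libraries, against 0, 0 and 0.124 CPM in Sox17 controls.

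Of 39 other basement membrane and matricellular genes 33 could be tested, again with 0 called, at medians of −0.047 for Sox7 and 0.0044 for Sox17, against 0.037 and 0.047 for all genes. At an unadjusted p under 0.05, 1 was higher in the Sox7 comparison (Tgfbi; 0.851% of all genes), and in the Sox17 comparison 1 was higher (Emilin1; 0.752% of all genes) and 4 lower (Sparcl1, Fbln2, Fbln5 and Hmcn1; 2.77% of all genes). Sparcl1, a relative of Sparc with anti-adhesive activity, had 993, 658 and 727 CPM in Sox17-deficient libraries, against 2583, 1379 and 985 CPM in Sox17 controls. Sox17-deficient 1 lay just above Sox17 control 3. The log2 fold change was −1.06 (SE 0.43), and −0.59 without Sox17 control 1, the shallowest library. Emilin1, an elastin-associated glycoprotein, had 60.5, 31.5 and 41.7 CPM in Sox17-deficient libraries, against 2.72, 7.51 and 16.7 CPM in Sox17 controls, and Fbln2, a fibulin that binds laminins and nidogen, had 0.688, 0 and 0 CPM in Sox17-deficient libraries, against 20.4, 18.8 and 2.23 CPM in Sox17 controls. Tgfbi, an adhesion protein that macrophages also make, had 365 and 50.8 CPM in Sox7-deficient libraries, against 33.6 and 43.1 CPM in Sox7 controls. Its log2 fold change of 2.44 (SE 0.88) was 0.38 without Sox7-deficient 1, the library with the high macrophage markers, whose part was not tested. Postn, which encodes periostin, had 36.2 and 12.5 CPM in Sox7-deficient libraries, against 1.92 and 0 CPM in Sox7 controls, and Thbs2, a thrombospondin, had 0 and 0 CPM in Sox7-deficient libraries, against 3.95 and 0 CPM in Sox7 controls.

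All 23 listed matrix receptors could be tested and 0 were called, at medians of 0.088 for Sox7 and 0.55 for Sox17, against 0.037 and 0.047 for all genes. In the Sox17 comparison 14 of the 23 were above 0 (60.9%, against 52.8% of all genes). Their median set differences were 1.27, −0.007 and −0.056 in Sox17 sets 1, 2 and 3, so only set 1 was clearly above 0. Itgb3, an integrin chain of growing vessels that binds fibronectin and vitronectin, had 66.7, 105 and 81.4 CPM in Sox17-deficient libraries, against 19.1, 31.8 and 53.4 CPM in Sox17 controls. Every deficient library was above every control, at a log2 fold change of 1.27 (SE 0.49) and an unadjusted edgeR p of 0.0186. Itga6, the alpha chain of laminin-binding integrins, had 1208, 1333 and 1687 CPM in Sox17-deficient libraries, against 4204, 1374 and 1448 CPM in Sox17 controls; only Sox17 control 1 stood apart. Itgb1, the common beta chain of collagen and laminin receptors, had 726, 528 and 1187 CPM in Sox17-deficient libraries, against 588, 463 and 612 CPM in Sox17 controls. In the Sox7 arm Itgb5, a vitronectin-binding integrin chain, had 154 and 17.3 CPM in Sox7-deficient libraries, against 12.6 and 3.04 CPM in Sox7 controls, and Sdc4, a heparan sulfate syndecan, had 517 and 16.7 CPM in Sox7-deficient libraries, against 54.2 and 11.9 CPM in Sox7 controls. Both were far higher in Sox7-deficient 1, the library with the high macrophage markers, than in the other Sox7 arm libraries, and the part of those markers was not tested. Sdc4 was at −1.01 without it, against 3.01 with it. Itga2, a collagen receptor chain, had 0 and 0 CPM in Sox7-deficient libraries, against 2.99 and 0.0922 CPM in Sox7 controls.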

How the data were processed

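RNA was extracted with Trizol and libraries were made with the Lexogen QuantSeq kit, per the labels' protocols. The authors deposited 1 file per library with raw, whole-number counts for each symbol. Bowtie2 and edgeR on mm10 are named per the submitters' processing notes; which counter, annotation and strand setting were used is not given in the sources used here. Those symbols listed in the Sox17 files alone (1183) were left out, and repeated symbols were summed. Tests used edgeR 4.0.16 in R 4.3.3 (quasi-likelihood F-test, robust, TMM, filterByExpr): 1 mean per group, 10 libraries, 6 residual degrees of freedom, Benjamini-Hochberg adjustment over 13040 genes, with 10198 removed. The standard error is the size of the log2 fold change over the square root of F. The script was tested on simulated counts. Differences per set use log2(CPM + 1).

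Sets were taken to pair the libraries, since shared run labels in the descriptions tie 4 of the 5 and the design text speaks of independent sets. As a check, deviations from group means were correlated between deficient and control libraries. Within sets the values were 0.193 in the Sox7 arm, where 2 libraries a group give a single value for both sets, and 0.120, 0.0911 and 0.0896 in Sox17 sets 1, 2 and 3. Between different sets they were −0.109 to 0.0241 in the Sox17 arm and −0.193 in the Sox7 arm, where the sign is fixed by the design. The main test did not use the pairing. The genes, the lists and the tests were chosen with earlier results of these data known. Genes named with values were the vascular basement membrane and fibrillar genes that passed the filter, the 5 others with the smallest p in each comparison, and 3 genes per pathway list and comparison; fold changes are printed at 50 CPM or more. Alternatives were DESeq2 1.42.0 and its size factors, no filter, a replicate block, no Rn45s (3.93% to 28.8% of counts), only the arm compared, pan-endothelial scaling (added after the data were seen) and leaving out each library. Mmrn2, Vtn, Dcn and Fbln1 stand in a marker list and in a matrix list. One untested gene of the 61 is not reported here.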

Additional observations from a re-analysis of the deposited data

Results flagged for a closer look

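For 4 of the 15 genes of 50 CPM or more every Sox7 set had the deficient library below its control. In every Sox17 set it lay above its control. This order held for 26.7% of the 15, against 4.65% of genes at that level, and some pan-endothelial markers shared it. The difference between the arms was tested as an interaction in edgeR. The 4 genes were picked for these opposite directions. A negative difference, also with 1 library left out, was thus largely fixed in advance and supports nothing. The Sox7 log2 fold change minus the Sox17 one was −1.23 (SE 0.57, adjusted p = 1) for Col4a1, −1.20 (SE 0.66, adjusted p = 1) for Col4a2, −1.08 (SE 0.61, adjusted p = 1) for Lamc1 and −0.69 (SE 0.63, adjusted p = 1) for Nid1. None passed the threshold. Over the alternatives that leave out 1 library, it ranged from −1.48 to −1.03 for Col4a1, from −1.71 to −0.83 for Col4a2, from −1.46 to −0.86 for Lamc1 and from −1.08 to −0.40 for Nid1.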

How the results depend on the processing

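No gene of the group passed the adjusted threshold under any alternative run (edgeR or DESeq2). Over all genes, the calls were 58 for Sox7, 30 for Sox17 and 58 for the difference without the filter, 3, 29 and 14 with DESeq2, 1, 6 and 3 with the replicate block, and 0 to 14, 0 to 1 and 0 to 9 when 1 library was left out; pan-endothelial scaling called 1 gene for Sox17. The replicate block changed no call of the group. The median over the 45 genes tested was 0.071 for Sox7 with pan-endothelial scaling and −0.025 for Sox17 without the filter, and ranged from −0.45 to 0.028 and from −0.29 to 0.32 with 1 library left out. Over the 15 abundant genes the Sox7 median was 0.071 with pan-endothelial scaling, and leaving out 1 library gave −0.68 to −0.25 for Sox7 and 0.058 to 0.43 for Sox17.

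With pan-endothelial scaling the Sox7 log2 fold changes of Fn1 (0.29), Agrn (0.25), Nid1 (0.071), Lamb1 (0.095), Lama4 (0.36) and Lamc1 (0.17) turned direction. It moved the median of all genes up by 0.48. The median of the 15 abundant genes lay 0.45 below that, a gap that such a scaling leaves nearly unchanged. With the replicate block those of Lama4 (0.043) and Lamb2 (−0.25) did, and Lamb2 was at −0.0041 with only its own arm. Leaving out 1 library gave Sox7 ranges that cross 0 for Agrn (−0.44 to 0.028), Lamb1 (−0.76 to 0.013), Lama4 (−0.66 to 0.72), Lamb2 (−1.35 to 0.68), Lama5 (−1.64 to 0.48), Col13a1 (−0.22 to 1.45) and Sdc4 (−1.01 to 4.46). The Sox17 ranges cross 0 for Sparc (−0.42 to 0.15), Fn1 (−0.11 to 0.28), Lama4 (−0.15 to 0.62), Lama5 (−0.15 to 0.50), Col13a1 (−0.90 to 0.079) and Nid2 (−0.54 to 0.24). Among the genes of 50 CPM or more named from the pathway lists, Tgfbi (adjusted p = 0.0482) and Sdc4 (adjusted p = 0.00206) passed the edgeR threshold in the Sox7 comparison without the filter. The cause of these changes was not tested. With 2 or 3 libraries a group and standard errors of 0.84 to 4.55 (Sox7) and 0.68 to 3.69 (Sox17) for the sparse genes, these fold changes are not given.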
